A study of Homo sapiens with 6 samples.

Results

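Broad accessible regions are stretches of open chromatin of 2 kb or more. They were selected on their width in the deposited consensus peak sets of HLF cells, where a width of 2000 bp was reached by 113 regions of 87417 under DMSO and 143 of 86725 under SNDX-5613. Overlapping regions of the 2 sets (1 bp or more) were joined, which gave 177 broad regions, or 0.184% of the 96271 merged consensus regions. Because width chose them, widths, summit counts and peak strengths are given as a description with no test.

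Open chromatin marks DNA where nucleosomes have been removed or loosened by transcription factors, remodelers and RNA polymerase. Most open sites are short, and wider openings are known at CpG-island promoters, at pairs of promoters that point away from each other and at genes that are transcribed very often. CpG islands are stretches rich in G, C and the dinucleotide CpG that escape DNA methylation. Genes of tRNAs are read by RNA polymerase III, and those of most spliceosomal snRNAs by RNA polymerase II from a compact promoter.

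Accessibility was measured by ATAC-seq, in which the Tn5 transposase tags exposed DNA. HLF is an established, poorly differentiated human liver cancer line, and it was treated with DMSO as vehicle (3 libraries) or with 5 μM SNDX-5613, which blocks the contact of menin with MLL1 (3 libraries). The labels give 24 h for all libraries, while the study describes a longer treatment, so the time is uncertain. By the study's methods a replicate was 1 dish whose cells were divided between treatment and control, but the methods do not say that equal replicate numbers mark the same dish. With 3 against 3 libraries an exact permutation test cannot go below p = 0.1. Gene starts of hepatocyte markers were mostly closed: 7 of 10, among them ALB, APOA1 and HNF4A, had a region in 0 libraries. Of 6 mesenchymal markers 4 were open in all 6 libraries, and 4 of 4 blood and endothelial markers were open in none.

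SNDX-5613 replicate 3 stood apart from the other libraries. Its list held 40568 regions against 88026 to 113675 in the others, and its genome background, a measure of depth read from the fold and p of each summit, was 0.211 against 0.997 to 1.51. It therefore reached 16.2% of the median depth of the others, and each result is given with it and without it where it matters.

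The 4 sequences below come from regions that differ in kind, to show how base composition differs among them. Each is 201 bp of hg38, plus strand, around the strongest summit whose window touches no exon of a protein-coding gene. Capitals mark GGGCGG (the GC box, or its complement CCGCCC) and CCAAT (or its complement ATTGG), the element bound by NF-Y. ZEB1 is the widest of those that were broad in SNDX-5613 only (chr10:31319430-31319630). The RNU4 site is the widest with snRNA genes (chr12:120293035-120293235, reaching into RNU4-1), the tRNA site holds 4 tRNA genes (chr17:8187622-8187822, reaching into TRI-AAT5-5), and the HCFC1 window lies at the pair of starts of HCFC1 and TMEM187 (chrX:153972005-153972205).
ZEB1: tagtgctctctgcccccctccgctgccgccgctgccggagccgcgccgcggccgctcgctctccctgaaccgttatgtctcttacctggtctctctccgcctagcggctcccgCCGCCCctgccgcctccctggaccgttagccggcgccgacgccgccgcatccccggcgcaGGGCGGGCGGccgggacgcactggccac
RNU4 site: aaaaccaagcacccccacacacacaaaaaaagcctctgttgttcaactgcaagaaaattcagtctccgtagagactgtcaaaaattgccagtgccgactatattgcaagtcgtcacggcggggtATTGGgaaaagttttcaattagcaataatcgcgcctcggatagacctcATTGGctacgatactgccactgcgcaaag
tRNA site: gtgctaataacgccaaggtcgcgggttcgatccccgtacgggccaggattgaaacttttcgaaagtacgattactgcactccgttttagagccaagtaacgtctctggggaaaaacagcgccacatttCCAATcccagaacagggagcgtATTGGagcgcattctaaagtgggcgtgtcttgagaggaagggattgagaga
HCFC1: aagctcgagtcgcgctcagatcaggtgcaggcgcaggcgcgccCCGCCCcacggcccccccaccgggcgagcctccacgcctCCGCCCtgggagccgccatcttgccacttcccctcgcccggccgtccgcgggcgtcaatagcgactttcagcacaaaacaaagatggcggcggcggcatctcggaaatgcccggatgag

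The ZEB1 window was 76.1% G+C with 29 CpGs and 3 GC boxes on both strands, and the HCFC1 window was 70.1% G+C with 25 CpGs and 2 GC boxes. The RNU4 window was 46.3% G+C and the tRNA window 50.7%, and each held 2 matches to CCAAT and 0 GC boxes. Both of these windows include sequence of a small RNA gene, so a match there can lie in transcribed sequence and not in a promoter. These matches are therefore not read as promoter elements, and binding of NF-Y to them was not tested.

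The 177 regions had a median width of 2155 bp, with quartiles at 2059 and 2308 bp and a range of 2001 to 3114 bp. Only 18 reached 2500 bp and 1 reached 3000 bp. The threshold falls on a steep slope of widths, since 1087 DMSO and 1172 SNDX-5613 consensus regions were at least 1500 bp wide. Just inside it were SNDX-5613 regions at MSH4 (2000 bp) and EIF4E (2001 bp) and a DMSO region at ELF1 and WBP4 (2004 bp). Just outside were a DMSO region at the lncRNA ENSG00000285763 (1999 bp) and the SNDX-5613 regions at NRIP1 and GPC6 (1998 bp each), of which GPC6 was a member through its DMSO region. These neighbours did not share a strength: the MSH4 region stood at the 44.8 to 61.0 percentile of the 5 deeper lists and the NRIP1 region at 91.2 to 96.1.

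Among the widest was the start of ARHGDIA (2895 bp), which encodes a GDP dissociation inhibitor of small GTPases, with a lncRNA start on the other strand. It had 1788 to 2240 bp covered in DMSO, 1778 and 2086 bp in SNDX-5613 replicates 1 and 2, and 0 bp in SNDX-5613 replicate 3. ZEB1, the zinc finger repressor of epithelial genes, followed with 2859 bp, and the lncRNA ENSG00000233538 with 2791 bp. The RNU4 site (chr12:120290672-120293449, 2778 bp) holds RNU4-1 and RNU4-2, which encode the U4 snRNA of the spliceosome. TNK2, a non-receptor tyrosine kinase, had 2740 bp, and IGF2BP1, an RNA-binding protein of fetal tissues and tumors, had 2731 bp.

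The other 8 of the 15 widest lay between 2518 and 2638 bp. They were a cluster of 3 tRNA genes on chromosome 1, the starts of ABHD12 (a lipase), TENT5A (a poly(A) polymerase) and FBXL14 (a subunit of ubiquitin ligases), the start pair of CTC1 (telomere maintenance) and PFAS (purine synthesis), a cluster of 4 tRNA genes on chromosome 17, and sites in RPL28 and near RPL3. These regions mixed regulatory genes, common cellular genes and genes of small RNAs.

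Summits showed how the width was built up. A broad region held on average 6.50, 6.21 and 5.90 summits under DMSO and 5.75, 5.47 and 2.52 under SNDX-5613. Single list regions, which are much shorter, held 1.18 to 1.41 over the whole lists. Merged consensus regions of 1500 to 1999 bp held 4.72, 4.49 and 4.12 under DMSO and 4.17, 3.90 and 2.02 under SNDX-5613. Neighbouring summits lay a median of 251 to 287 bp apart in the 5 deeper libraries. The starts of TNS2 (an adaptor at cell adhesions) and PAWR (a pro-apoptotic protein) were among the 5 with the most summits outside the 15 widest, with 9 to 11 at TNS2 and 7 to 10 at PAWR in those libraries. SETD7, a lysine methyltransferase, the MALAT1 locus and the body of RPS9 completed the 5. The strongest summit was reproducible: in 108 of 177 regions it lay within 100 bp in all 5 deeper libraries. Where a gene start was inside, the strongest summit was a median of 88.0 to 95.5 bp from the nearest start in all 6 libraries. These regions held a median of 5 distinct start positions, which shortens that distance, and no other positions were measured for comparison.

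Few broad regions were broad in a single library. A single list region of 2 kb or more lay in 16, 12 and 20 of the 177 in DMSO replicates 1, 2 and 3, and in 9, 24 and 0 in SNDX-5613 replicates 1, 2 and 3. In 136 of 177 no library had one. The median width covered was 1636, 1647 and 1790 bp under DMSO and 1607, 1788 and 716 bp under SNDX-5613. The group means were 1691 ± 85.9 bp (SD, n = 3) and 1370 ± 574 bp (SD, n = 3), a difference of -321 bp that was smaller than the SNDX-5613 spread and was 6.50 bp without SNDX-5613 replicate 3. Most consensus widths thus exceeded any single list region, and 155 of 177 regions had an end outside all regions of the 6 lists. Of the ends of consensus regions of 2 kb or more, 39.8% in DMSO and 23.8% in SNDX-5613 coincided with an end in a list of the same group. The widths that define the broad regions may therefore rest on peak calls other than the lists analysed here, which was not tested.

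**Figure D1:**
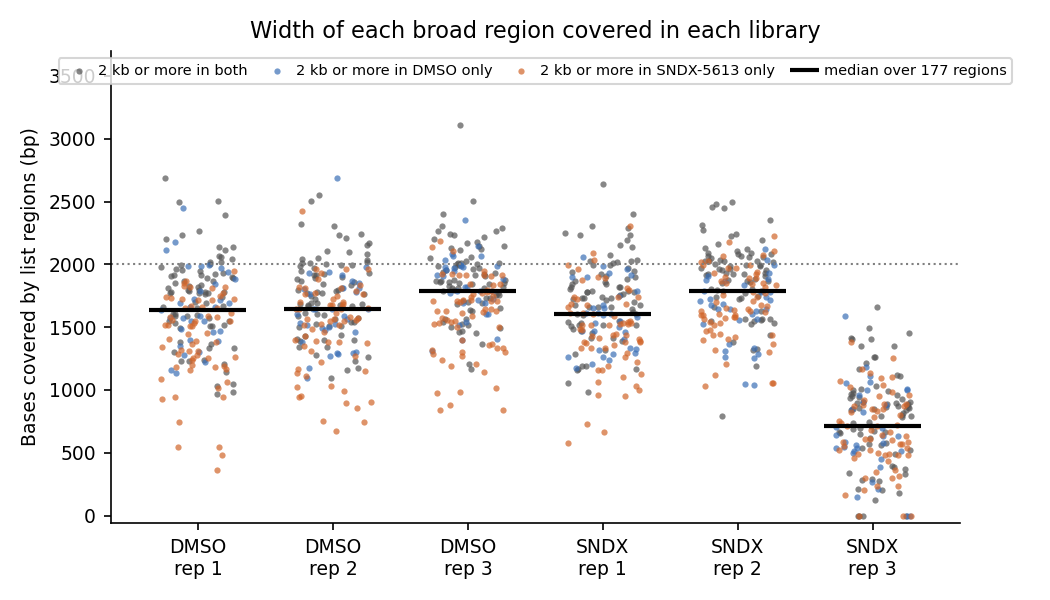
Bases of each of the 177 broad regions covered by list regions (y axis, bp) in each of the 6 libraries (x axis), 1 point per region, coloured by the consensus set in which it was 2 kb or more, with the median as a bar and 2000 bp dotted. The 5 deeper libraries had medians of 1607 to 1790 bp, and SNDX-5613 replicate 3 had 716 bp.

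The 2 consensus sets shared 79 broad regions, while 34 were broad in DMSO only and 64 in SNDX-5613 only. The excess on the SNDX-5613 side depended on the deposited sets: in sets rebuilt from list regions present in 2 of 3 libraries, 33 were broad in DMSO only and 20 in SNDX-5613 only. No region broad in 1 set was absent from the other. Regions broad in DMSO only had a median width of 2102 bp in DMSO and 1470 bp in SNDX-5613, and 22 of 34 were split into 2 or more SNDX-5613 regions. Regions broad in SNDX-5613 only had a median of 2082 bp in SNDX-5613 and 1669 bp in DMSO, and 32 of 64 were split in DMSO.

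ZEB1 was the widest region that was broad in 1 set only: 2859 bp in SNDX-5613 and 1645 bp in DMSO. The bases covered at ZEB1 were 1319, 1837 and 1914 bp in DMSO and 1966, 2024 and 920 bp in SNDX-5613, so both deeper SNDX-5613 libraries lay just above the highest DMSO library. Among the regions broad in SNDX-5613 only, the largest difference between the sets was at SLC6A15, a transporter of neutral amino acids, with 2346 bp in SNDX-5613 and 789 bp in DMSO. It had 948, 677 and 981 bp covered in DMSO, and 997, 1577 and 168 bp in SNDX-5613, so SNDX-5613 replicate 2 stood above all others and replicate 1 was near the DMSO libraries. ARHGEF17, a guanine nucleotide exchange factor gene and a YAP-TEAD target gene, had 2366 bp against 1077 bp, and LTBP3 (storage of latent TGF-β) and the ETS factor gene ELF2 completed the 5.

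In the other direction, TNK2 was 2740 bp in DMSO and 1166 bp in SNDX-5613. Its covered width was 1988, 2687 and 2351 bp in DMSO and 2055, 2036 and 881 bp in SNDX-5613, so the groups overlapped. At the start pair of LAMTOR2 (a Ragulator subunit that recruits mTORC1) and UBQLN4, 2330 bp in DMSO faced 756 bp in SNDX-5613, while 1726, 1497 and 2149 bp were covered in DMSO and 1463, 1646 and 643 bp in SNDX-5613. Here too the libraries overlapped. INF2 (a formin), MASTL with YME1L1 (a mitotic kinase and a mitochondrial protease) and CHFR with ZNF605 (a mitotic checkpoint ubiquitin ligase and a zinc finger gene) had the other large differences.

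The covered widths in the libraries were closer than the consensus widths. Of the 64 regions broad in SNDX-5613 only, both deeper SNDX-5613 libraries covered more than each of the 3 DMSO libraries in 11 and less in 4. Of the 34 regions broad in DMSO only, they covered less in 5 and more in 2. Of the 79 shared regions, they covered more in 11 and less in 3. No share over all consensus regions was taken for these counts, and consensus width chose the regions. The counts are therefore a description with no test. Among the 143 regions broad in SNDX-5613, the widest piece came from replicate 2 in 106, from replicate 1 in 37 and from replicate 3 in 0.

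**Figure D2:**
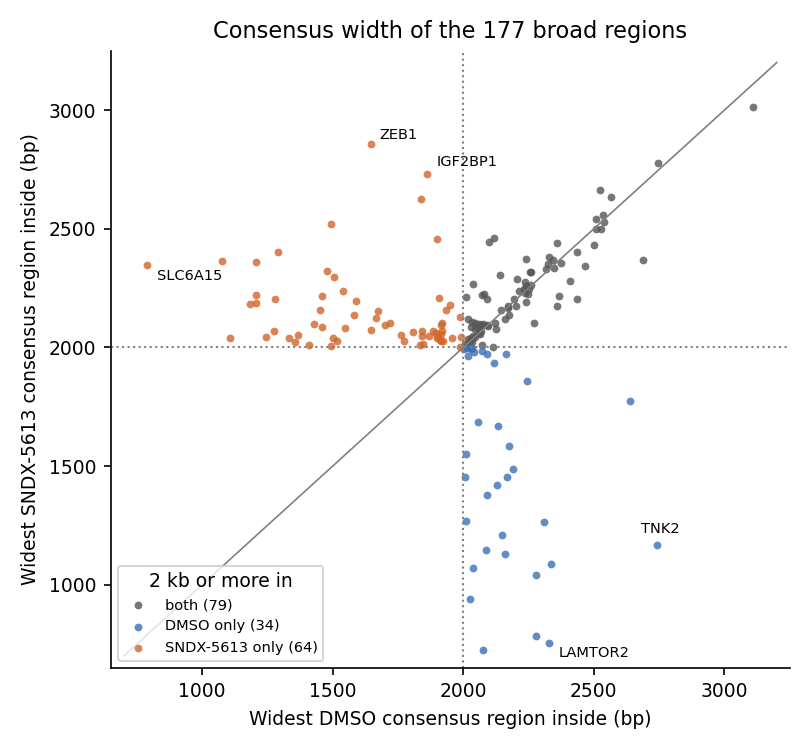
Width of the widest consensus region inside each of the 177 broad regions in the DMSO set (x axis, bp) and in the SNDX-5613 set (y axis, bp), with 2000 bp dotted and equal width as a line. The 79 shared regions lie near the line, and ZEB1 and SLC6A15 (SNDX-5613 only) and TNK2 and LAMTOR2 (DMSO only) lie far from it.

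Gene starts were the most frequent content. A start of a protein-coding or lncRNA gene (GENCODE release 44) lay in 146 of 177 broad regions, or 82.5% (95% Wilson interval 76.2 to 87.4, counting error only), beside 18.4% of all merged consensus regions. The broad regions held starts of 163 protein-coding genes: 107 regions had 1 such gene, 25 had 2 and 2 had 3. A further 12 held lncRNA starts only. The share went with width from 5.60% of regions under 500 bp to 66.9% at 1000 to 1499 bp and 80.3% at 1500 to 1999 bp, so that the broad regions lay at the end of a gradient. By consensus set the share was 86.1% for those broad in both, 79.4% for DMSO only and 79.7% for SNDX-5613 only.

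Starts on both strands were found in 70 of the 146 broad regions with a start (47.9%), beside 22.1% of all consensus regions with a start. This share also went with width, at 35.4% for 1000 to 1499 bp and 40.8% for 1500 to 1999 bp. Examples are CTC1 with PFAS, LAMTOR2 with UBQLN4, MASTL with YME1L1, HCFC1 with TMEM187 and HNRNPA2B1 with CBX3, where both genes are protein-coding, and ZEB1 with ZEB1-AS1 and EGR1 with a lncRNA. A wider window holds more starts by length alone. Per kb the broad regions with a start had 2.81 distinct start positions, against 5.11 in all consensus regions with a start. A short region that holds a start has a high density by its length. Counted over all regions, with or without a start, the density was 2.32 per kb in broad regions and 1.57 per kb in all consensus regions. In the 66 broad regions with a protein-coding start and starts on 1 strand only, a median of 53.4% of the width lay upstream of the start.

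Of the 31 broad regions without a start of a protein-coding or lncRNA gene, 16 were centred in intergenic sequence, 11 in introns and 4 in exons, at a median of 6782 bp from the nearest start. Genes of tRNAs or snRNAs (RefSeq, GRCh38.p14) lay in 7 of these 31 and in 13 of all 177. The share with a tRNA gene was 4.52% (8 of 177), beside 0.292% of all consensus regions, and the share with a snRNA gene was 2.82% (5 of 177), beside 0.0467%. Per Mb covered, the broad regions held 51.1 tRNA genes against 6.63 over all consensus regions, and 15.3 snRNA genes against 0.902. They held 20 of the 338 tRNA genes and 6 of the 46 snRNA genes that lay in any consensus region. These annotations were looked up after the members were known.

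The snRNA genes were those of 3 spliceosomal RNAs. U4 had RNU4-1 and RNU4-2 at the RNU4 site, U5 had RNU5B-1 (chr15:65303707-65305804) and RNU5E-1 (chr1:11907788-11909965), and U2 had RNU2-2 at WDR74 (chr11:62840045-62842143) and a U2 gene in an intron of LINC00910 (chr17:43367108-43369517). U2 genes exist in many near-identical copies, so reads there can be placed uncertainly. The RNU4 site was covered over 2393, 2151 and 2397 bp in DMSO and 2399, 2459 and 1492 bp in SNDX-5613. With RNU5E-1 (1454 bp) and WDR74 (1259 bp) it was among the regions best covered in the shallow SNDX-5613 replicate 3, where the median was 716 bp.

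Of the 8 regions with tRNA genes, those at BCAR3 and at ELF1 with WBP4 held a single one and the others held several. On chromosome 17, 4 tRNA genes lay at chr17:8220692-8223248 (2557 bp) and 4 at chr17:8186000-8188045 (2046 bp), on chromosome 1, 3 lay at chr1:146036987-146039624 (2638 bp), and 2 lay beside the starts of ANG and RNASE4, which encode secreted ribonucleases. The chr17:8220692-8223248 site was covered over 2497, 2501 and 2504 bp in DMSO and 2231, 2482 and 1409 bp in SNDX-5613. Like the other tRNA regions it was moderately strong, at percentiles of 85.0, 90.1 and 84.3 in DMSO and 84.9, 87.5 and 67.6 in SNDX-5613.

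The other 24 broad regions without a start were weaker. Their median percentile was 68.7, 74.1 and 70.0 under DMSO and 74.9, 72.5 and 35.9 under SNDX-5613. For the 134 regions with a protein-coding start it was 85.7, 89.2 and 88.1 under DMSO and 88.4, 86.5 and 69.3 under SNDX-5613. Some lay inside genes of abundant cellular proteins, RPS9 and RPL28 (ribosomal proteins), TUBA1C (tubulin) and CFL1 (cofilin). A region over an exon of VAT1 (chr17:43013981-43016073) had the lowest mean percentile over the 5 deeper libraries, 26.5, and covered only 479, 1138 and 840 bp in DMSO and 575, 1052 and 0 bp in SNDX-5613. SNDX-5613 replicate 3 had no region at 7 of these 24, and at 2 of the 134 with a protein-coding start (ARHGDIA and RCC1), 9 of 177 in all.

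Broad regions were G+C-rich as promoters are. Their median G+C content was 64.1%, beside 52.0% of all consensus regions and 63.2% of all consensus regions with a start. The ratio of observed to expected CpG was at least 0.6, a usual mark of CpG islands, in 133 of 177 (75.1%), beside 17.7% and 70.0% of those sets. With a start inside, the broad regions had a median ratio of 0.773 against 0.738 for all consensus regions with a start, a smaller difference than that between regions with and without a start. The 31 without a start had a median of 56.7% G+C and a ratio of 0.303. Regions with tRNA or snRNA genes stood apart from both, with a median of 52.7% G+C and a ratio of 0.746.

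**Figure D3:**
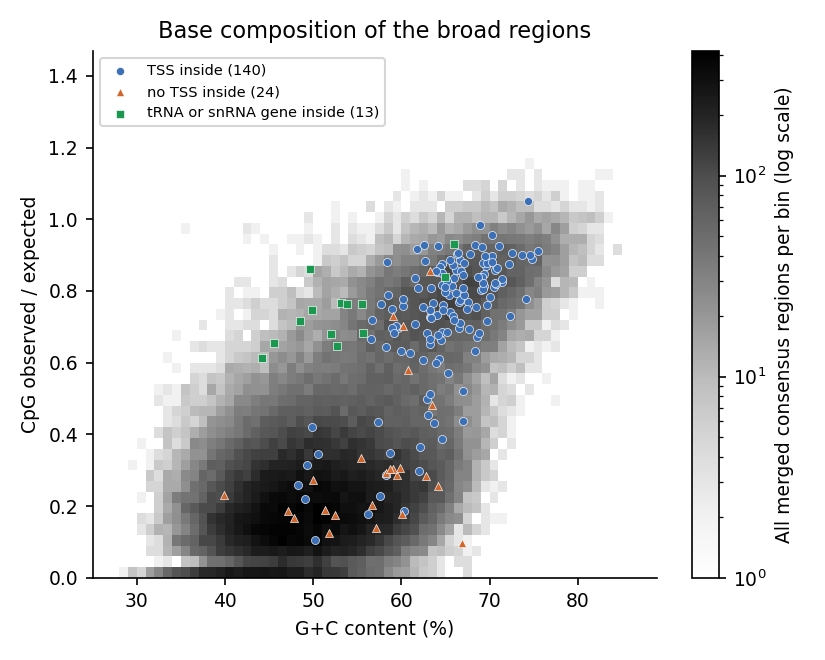
G+C content (x axis, %) and ratio of observed to expected CpG (y axis) of the 177 broad regions, by content, over the density of all 96271 merged consensus regions in grey (log scale). Regions with tRNA or snRNA genes combine a median of 52.7% G+C with a CpG ratio of 0.746, while regions with a start lie mostly above 60% and 0.6.

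Short sequence elements were counted on both strands within 100 bp of the strongest summit. No motif contains another. GGGCGG, the GC box of SP and KLF factors, was found in 53.7% of broad regions, beside 18.7% of all consensus regions and 57.4% of those with a start. CCAAT was found in 22.0%, beside 25.1% and 30.0%. TGANTCA, which includes the AP-1 site, was found in 9.04%, beside 19.5% and 7.36%, and CATTCC, the core of TEAD sites, in 6.78%, beside 16.0% and 8.63%. AGATAA, a core of sites bound by GATA4 and GATA6, was found in 2.26%, beside 6.70% and 2.47%. CCGGAAGT (ETS), TGACGTCA (CREB) and ATGCAAAT (octamer) were rare, at 2.26%, 2.26% and 1.13% of broad regions, beside 1.29%, 0.738% and 0.921% of all consensus regions and 5.45%, 2.60% and 0.86% of those with a start. Over the whole width, CCAAT occurred 0.821 times per kb in broad regions, 1.45 times in all consensus regions and 1.27 times in those with a start. A match is a description of letters, not of binding.

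Beyond 1 kb, wider classes were not stronger. The rank percentile places the strongest -log10 p of a region in the list of its library, from 0 to 100. The median percentile of the broad regions was 84.0, 88.2 and 86.3 under DMSO and 87.3, 85.8 and 64.8 under SNDX-5613. The group means of these medians were 86.2 ± 2.13 (SD, n = 3) and 79.3 ± 12.6 (SD, n = 3), a difference of -6.88 that was smaller than the SNDX-5613 spread and was 0.372 without SNDX-5613 replicate 3. The level depends on the measure, since the strongest of several summits was ranked: by fold enrichment the medians were 53.3, 64.4 and 59.3 under DMSO and 63.8, 58.2 and 54.0 under SNDX-5613, and by the mean over summits the group means were 66.4 ± 5.34 and 63.0 ± 9.03 (SD, n = 3). In DMSO replicate 2, as an example, the median went from 51.5 under 500 bp to 90.4 at 1000 to 1499 bp, and was 90.2 at 1500 to 1999 bp and 88.2 for the broad regions. In none of the 6 libraries was any of the 177 in the top 1% of the list, while in DMSO replicate 2, 4.98% of regions of 1000 to 1499 bp were. The strongest region on average, GPR137 on chromosome 11 (2159 bp), had percentiles of 95.8, 97.8 and 98.0 in DMSO and 98.3, 98.8 and 92.3 in SNDX-5613. Among the members, the widest 59 had a median of 86.3 and the narrowest 59 of 87.4.

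**Figure D4:**
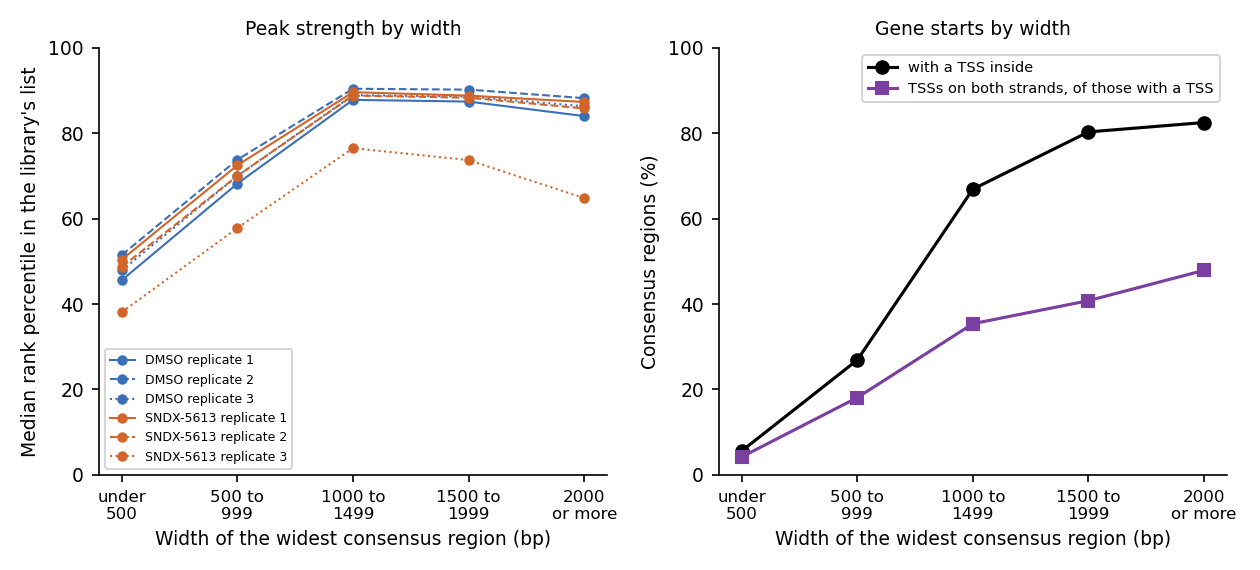
Left, median rank percentile (y axis) of all merged consensus regions by width of the widest consensus region inside (x axis, bp), 1 line per library. Right, share of regions with a gene start and, of those, with starts on both strands (y axis, %). Strength peaked at 1000 to 1499 bp (90.4 in DMSO replicate 2, and 88.2 for broad regions), while the share with a start went on to 82.5%.

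Ranks were compared between DMSO and SNDX-5613 by asking where all 3 libraries of a group stood above all 3 of the other. Of the 168 broad regions found in all 6 libraries, 0 ranked higher in SNDX-5613, beside 0.982% of the 33213 consensus regions found in all 6, and 12 ranked lower (7.14%), beside 7.70%. Both shares were close to the background. A list without the weaker sites gives a site a lower percentile, and SNDX-5613 replicate 3 had the shortest list. Without it, 16 of 177 ranked higher (9.04%), beside 14.6%, and 13 ranked lower (7.34%), beside 9.0%. With the replicate number as a block, where SNDX-5613 had to stand on the same side of DMSO in 3 of 3 same-numbered pairs, 0 ranked higher, beside 2.39% of all sites, and 28 lower, beside 18.9%.

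The 5 with the largest gap between groups were ENSG00000289044, DOCK10, SFMBT1, N4BP2 and GALNT7. At the lncRNA ENSG00000289044, in an intron of MIRLET7BHG, the host gene of let-7b, percentiles were 74.5, 82.9 and 75.0 in DMSO and 64.9, 69.5 and 29.9 in SNDX-5613. At DOCK10, an activator of Cdc42 and Rac1, they were 67.4, 69.6 and 66.2 in DMSO and 60.9, 62.1 and 32.0 in SNDX-5613. At SFMBT1, a chromatin reader of the MBT family, they were 74.7, 78.0 and 76.1 in DMSO and 67.1, 71.5 and 27.7 in SNDX-5613. In each of these 3, both deeper SNDX-5613 libraries stood below all DMSO libraries and the shallow one far below. Gaps at N4BP2 and GALNT7 (an enzyme of mucin-type glycosylation) were under 1 point of percentile, as at the other 7: CDKN2C, CDC14A, SLC30A1, SAMD4A, CPEB2, RAP1GDS1 and SETD7.

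Ranking among the 33213 regions found in all 6 libraries removes the unequal length of the lists. Then 7 of 168 broad regions ranked higher in SNDX-5613 (4.17%), beside 8.54%, and 14 ranked lower (8.33%), beside 8.01%. Without SNDX-5613 replicate 3, 15 of 177 ranked higher (8.47%), beside 11.9%, and 25 ranked lower (14.1%), beside 17.6%. Of the 14, 7 were also lower by the first ranking. Medians of this rank were 60.3 ± 1.09 in DMSO and 59.1 ± 1.15 in SNDX-5613 (SD, n = 3), so that the broad regions as a group differed by little more than the spread of either.

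The 7 that ranked higher were HCFC1 with TMEM187, RDH10 with RPL7, IFITM3, ATP6V1A with NAA50, NAB2 with NEMP1, the MALAT1 locus and 2 lysine tRNA genes at chr1:204506192-204508468. HCFC1, a subunit shared by MLL1 and related H3K4 methyltransferase complexes, had ranks of 46.6, 52.2 and 49.1 in DMSO and 55.6, 60.5 and 77.6 in SNDX-5613, the largest gap of the 7. IFITM3, which restricts the entry of viruses, had 37.7, 49.7 and 46.0 in DMSO and 54.5, 49.9 and 55.2 in SNDX-5613, where the nearest libraries differed by less than 1 point. At the MALAT1 locus the start inside is that of the antisense RNA TALAM1, and ATAC-seq does not tell strands apart.

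The 14 that ranked lower were PLEKHG5, CDC14A, SLC30A1, ZMYND11, TNS2, HMGA2, CLIP1, SAMD4A, DOCK10, ENSG00000289044, SFMBT1, N4BP2, FBN2 and CADPS2. HMGA2, a chromatin protein of embryonic tissues and tumors, had ranks of 30.7, 32.7 and 29.8 in DMSO and 19.2, 28.2 and 26.9 in SNDX-5613. ZMYND11, a reader of methylated histone H3.3, ranked low throughout, with 11.8 to 14.9 in DMSO and 7.46 to 9.84 in SNDX-5613. SLC30A1, a zinc exporter, ranked high throughout, with 92.7 to 94.0 in DMSO and 85.6 to 92.0 in SNDX-5613. The called regions thus spanned the whole range of ranks.

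**Figure D5:**
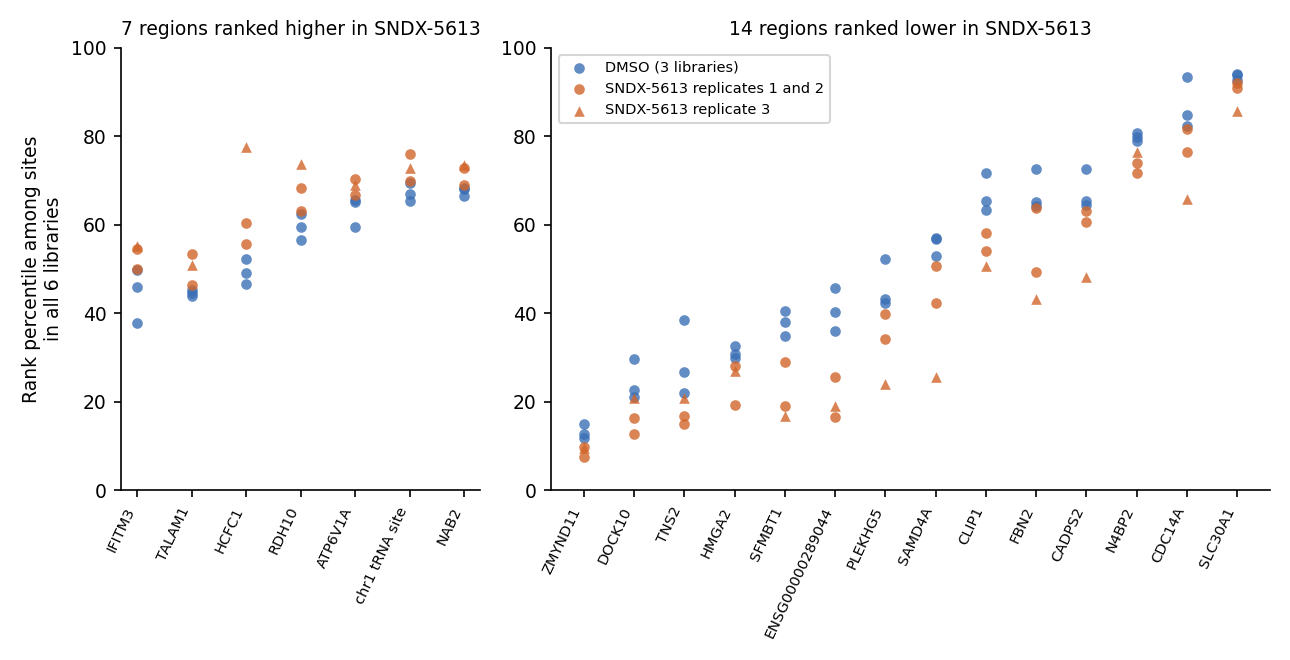
Rank percentile among the 33213 sites found in all 6 libraries (y axis) for the 7 broad regions that ranked higher and the 14 that ranked lower in SNDX-5613 (x axis), with DMSO libraries in blue, SNDX-5613 replicates 1 and 2 as orange points and replicate 3 as triangles. The groups do not overlap in any of the 21 by selection, and gaps were often narrow, as at IFITM3 (49.7 against 49.9).

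Genes of fixed lists were looked up in the broad regions and read against all protein-coding genes, of which 13939 had a start in a consensus region and 163 of these (1.17%) in a broad one. Immediate early response genes had 2 of 29, EGR1 and ZFP36L2, and YAP-TEAD target genes had 2 of 22, FJX1 and ARHGEF17. Splicing factor genes had 2 of 29, HNRNPH1 and HNRNPA2B1. EMT transcription factors had 1 of 8 (ZEB1), heat shock and ubiquitin genes 1 of 21 (HSP90AB1), cyclins and cell cycle regulators 1 of 26 (CDKN2C), menin, MLL and COMPASS core genes 1 of 17 (HCFC1) and cytosolic ribosomal protein genes 1 of 77 (RPL7). Counts of 1 or 2 do not set a list apart from the 1.17% of all genes.

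Other lists had no member. HOX genes had 0 of 19 with an accessible start, developmental transcription factors 0 of 42, AP-1 subunits 0 of 11, KLF and SP factors 0 of 21, noncoding RNA host genes 0 of 22, housekeeping genes of cytoskeleton and metabolism 0 of 20, NF-Y subunits 0 of 3, genes followed by the study 0 of 6 and replication-dependent histone genes 0 of 54. EGR1, a zinc finger factor induced within minutes of growth signals, had percentiles of 90.4, 93.8 and 93.3 in DMSO and 94.7, 92.8 and 82.3 in SNDX-5613. HSP90AB1, the constitutive HSP90 chaperone, had 95.2, 94.2 and 90.9 in DMSO and 96.0, 93.8 and 87.2 in SNDX-5613. FJX1, a YAP target gene, had 80.8, 79.5 and 77.5 in DMSO and 76.7, 82.6 and 33.9 in SNDX-5613. In all 3 the 2 deeper SNDX-5613 libraries overlapped DMSO or lay on either side of it, and the groups did not separate.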

How the data were processed

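Members and gene lists were chosen with earlier results of these data known. Per the labels and the study's methods, the authors trimmed reads with Trim Galore 0.6.7, aligned them with Bowtie2 2.3.4.1 to hg38, marked duplicates with Picard 2.20.0, sorted them with SAMtools, called peaks per library with MACS2 and combined replicates with RMSPC. A Tn5 shift, the removal of duplicates and an exclusion list were not given in the sources used here. The deposited peak lists give the authors' fold enrichment over local background (a ratio) and -log10 p and -log10 q per summit. The deposited consensus sets give regions, and their score was not used. Read counts were not analysed here, so no count model was fitted.

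Summits of a list that shared coordinates formed 1 region. A broad region took its covered width, summits and highest -log10 p from overlapping list regions of each library, and its percentile from that list. Other sequences than the numbered chromosomes, X and Y were left out. Starts came from GENCODE release 44, small RNA genes from RefSeq (GRCh38.p14). Named were the 15 widest members, the 5 with the most summits, the 5 widest without a start, the 5 with the largest rank gap per direction, the 5 with the largest width difference per set, members with a listed gene, and those nearest to 2000 bp. Regions ranked among sites in all 6 libraries, those with tRNA or snRNA genes, and those with the highest and lowest mean percentile were added after their values were seen. The lookup was tested on simulated data. Python 3.11.15, pandas 2.3.3 and pysam 0.24.0 were used. Alternatives included widths of 1500 and 3000 bp, rebuilt consensus sets, a -log10 q of at least 3, equal numbers of regions, other rankings and leaving out each library. One named member is not reported here.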

Additional observations from a re-analysis of the deposited data

How the results depend on the processing

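Depth limits the comparison of the groups, since SNDX-5613 replicate 3 listed the fewest regions. The number of broad regions was 177 and became 1469 with a minimum of 1500 bp, 1 with 3000 bp, and 94 when the sets were rebuilt from list regions present in 2 of 3 libraries, with 78 to 93 when 1 library was left out of that rebuilding. Of the 177, 68 overlapped a broad region of the rebuilt sets. In the rebuilt sets 20 were broad in SNDX-5613 only, against 64, and 33 in DMSO only, against 34. The share with a gene start was 75.7% for protein-coding genes only and 100% for the single region of at least 3000 bp, and between 80.5% and 87.0% under the other alternatives.

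The number of broad regions ranked higher in SNDX-5613 was 0. It was 6 by fold enrichment (3.57%, beside 3.43% of all sites) and 7 among sites in all 6 libraries (4.17%, beside 8.54%). Ranked among the members alone, 11 were higher (6.55%), and this ranking has no share over all sites to be read against. The number was 0 to 16 when a library was left out. It was 16 without SNDX-5613 replicate 3 (9.04%, beside 14.6%) and 1 without DMSO replicate 2 or SNDX-5613 replicate 2 (0.595%, beside 2.53% and 1.39%). The number ranked lower was 12, and 3 by fold enrichment (1.79%, beside 6.71%). Among the members alone 7 were lower (4.17%), again without a share over all sites. When a library was left out the number was 13 to 45. It was 45 without DMSO replicate 1 (26.8%, beside 19.1%) and 41 without SNDX-5613 replicate 1 (24.4%, beside 22.7%). It was 19 without DMSO replicate 3 or SNDX-5613 replicate 2 (11.3%, beside 13.6% and 14.3%). The background moved with the counts when a library was left out. With the replicate number as a block, requiring the same sign in 3 of 3 pairs, 0 ranked higher and 28 lower, beside 2.39% and 18.9% of all sites. The study describes dishes divided between treatment and control, which is a paired design, but does not say that equal numbers mark 1 dish, and same-numbered libraries did not deviate together (correlations of 0.030, -0.000061 and 0.018). Both counts are therefore given.

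CCAAT was found in 39.0% of broad regions within 250 bp of the summit, beside 48.3% of all consensus regions and 44.6% of those with a start. Group differences in covered width, summits and percentile moved by less than the SNDX-5613 SD under each alternative run. SNDX-5613 replicate 3 itself widened that SD. Without this replicate, the differences in covered width (6.50 bp in place of -321 bp) and percentile (0.372 in place of -6.88) changed sign. The difference in summits was -0.596 in place of -1.63 and kept its sign. Both deeper SNDX-5613 libraries (5.75 and 5.47 summits) lay below all DMSO libraries (5.90 to 6.50). The same order held per region over the whole lists, with 1.29 in both deeper SNDX-5613 libraries and 1.31 to 1.41 in DMSO. It is therefore not particular to the broad regions.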

Other observations

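The widest list regions were not among the broad consensus regions. A region on chromosome 5 (chr5:49656759-49661818 in DMSO replicate 2, 5060 bp) was found in the 5 deeper libraries at 4113 to 5060 bp, and one on chromosome 4 (chr4:49118368-49121264 in SNDX-5613 replicate 1, 2897 bp) in the same 5 at 2561 to 2897 bp. Between 5 and 16 list regions of 2 kb or more per deeper library lay in no member. No exclusion list of artifact-prone loci was applied here, and the sequence of these regions was not examined. They are therefore not read as the widest open chromatin of HLF cells.

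Members were unevenly spread over chromosomes. Chromosome 17 held 18 of 177 (10.2%), beside 5.06% of all consensus regions, chromosome 11 held 16 (9.04%), beside 5.26%, and chromosome 19 held 2 (1.13%), beside 4.36%. Of the 12 members that ranked lower in SNDX-5613 in each list, 5 were among the 13 members on chromosome 4, where 10.5% of all sites ranked lower, the highest share of the chromosomes. This was noticed after the values were seen and was not tested.

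CCAAT per kb went along the width classes of all consensus regions, from 1.58 under 500 bp to 1.29, 1.17, 1.03 and 0.824 at 2 kb or more, while GGGCGG per kb went from 0.661 to 1.49, 3.27, 3.77 and 3.56.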
